A study of Rattus norvegicus with 18 samples.

Results

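Gene expression in the healing femur was compared between older and adult rats after fracture. The comparison used the 10 arrays of these ages taken after fracture, of 18 arrays in this series, and all probe sets on them. The 18 arrays are labeled Series 1. The study describes further arrays of other rats at each age and time, which are not among them. The study followed mRNA expression at the fracture site in young, adult, and older female Sprague-Dawley rats, which were 6, 26, and 52 weeks old at fracture, with the aim of finding genes whose response to fracture changes with age. An intramedullary rod was placed in the left femur, and a closed fracture was made in the middle of its shaft. RNA came from a piece of femur centered on the fracture, one piece holding callus, cortical bone, and marrow together. The RNA of 2 rats of the same age was pooled for each array, and 5 older and 5 adult arrays were taken after fracture, with 1 array per age at each of 3 days and 1, 2, 4, and 6 weeks. Rats without fracture gave 1 array per age. The 5 young arrays after fracture entered the choice of probe sets bright enough to test and the estimate of the spread. They are otherwise given only as levels. The 5 times therefore stood in for the replicates of an age (n = 5 arrays), and each older array was paired with the adult array of the same time. P-values measure how far the differences between the ages varied from time to time, and not the spread between rats of the same age and time. Each array is a pool of rats, and 1 sex and 1 strain were studied.

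A broken long bone heals through an inflammatory phase, a soft callus of fibrous tissue and cartilage, and a hard callus of woven bone that is later remodeled. Muscle lies against the shaft, is torn by the fracture, and regenerates beside the callus, so a piece cut across the site can carry muscle mRNA. Skeletal muscle is rich in mitochondria, whose inner membrane holds the complexes of oxidative phosphorylation that pass electrons to oxygen and make ATP.

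Of 8799 probe sets, the groups of probes that each read 1 transcript, 4669 were bright enough to be tested. Signals are in arbitrary units scaled by the authors to a common average per array, and values below 100 were set to 100 before log2. Differences were tested with limma with time as a term, two-sided, and an adjusted p below 0.05 was called. A fold is the antilog of the fitted log2 difference, which is given ± SE. In older rats 111 probe sets were higher, 2.38% of those tested, and 63 were lower, 1.35%. The lowest adjusted p was 0.0323 by limma, so that no single gene stood far apart from the rest. The median size of the difference was 0.90 on the log2 scale for the higher and 0.84 for the lower probe sets, and 94 of 111 and 45 of 63 kept their direction at all 5 times. The number of arrays limits the precision of every value.

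The 2 ages hardly differed at 3 days, differed from 1 week on, and differed most in the single pair of arrays without fracture. At 3 days 41 probe sets were 2-fold or more higher in the older array and 14 were lower, 1.18% of those tested. At 1 week the numbers were 342 and 191, or 11.4%. At 2 weeks they were 250 and 184, or 9.3%. At 4 weeks 238 were higher and 230 lower, or 10%, and at 6 weeks 408 were higher and 228 lower, or 13.6%. Without fracture 859 were higher and 595 lower, or 31.1%. These are counts from 1 array against 1, with no test. Over the 4669 probe sets the differences at 3 days and at a later time had a correlation of -0.11 to 0.04, whereas those of any 2 times from 1 week to 6 weeks had a correlation of 0.42 to 0.59. The differences without fracture had a correlation of 0.34 to 0.52 with those from 1 week to 6 weeks, and of -0.06 with those at 3 days. Each array enters 1 time only, and probe sets are not independent of each other.

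**Figure D1:**
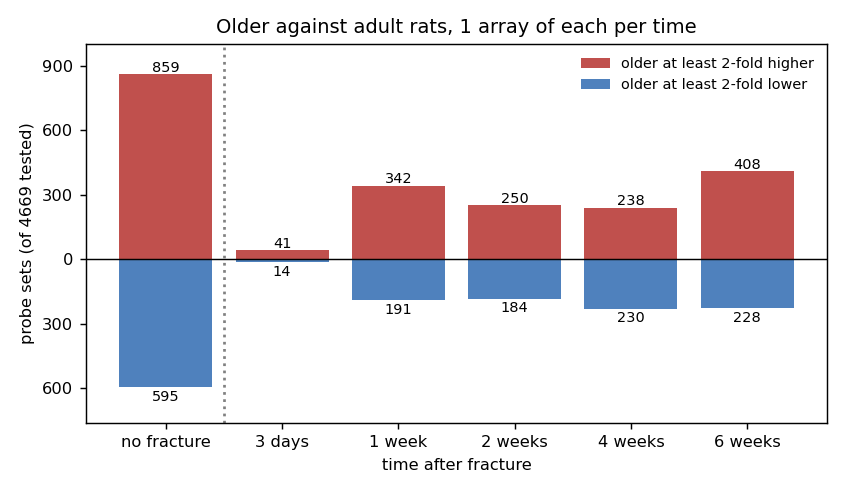
Bars give the number of probe sets, of 4669 tested, whose signal was at least 2-fold higher (up, red) or lower (down, blue) in the older array than in the adult array of the same time, with the pair without fracture left of the dotted line. The bars are short at 3 days (41 and 14) and long from 1 week on (342 and 191 at 1 week, 408 and 228 at 6 weeks), and longest without fracture (859 and 595).

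The number of calls depended on which arrays were included. Without both arrays of 3 days 738 probe sets were called, 435 higher (9.32%) and 303 lower (6.49%), and these included all 174 of the full comparison. Leaving out the older or the adult array of 3 days alone gave 640 or 600 calls. Leaving out any other of the 8 arrays, older or adult at 1, 2, 4, or 6 weeks, left 0 calls, with 846 to 1005 probe sets at an unadjusted p below 0.05 against 1213 with all arrays. A test of the difference from 1 week to 6 weeks against that at 3 days, added after the data were seen, called 0 probe sets by limma (348 at an unadjusted p below 0.05, lowest adjusted p 0.101), so a difference at later times that departs from 3 days was not shown for any single gene.

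Genes called higher in older rats were mostly genes whose signal was lower after 3 days in adult rats and about as high in older rats. From 3 days to the mean of 1 to 6 weeks the 111 higher probe sets moved by a median of -1.04 on the log2 scale in adult rats, where 105 moved down. In older rats the median was -0.12, and 67 moved down. In young rats, whose arrays entered the spread but not the difference tested, it was -0.34, and 83 moved down. The 63 lower probe sets moved the other way: the median was 0.71 in adult, 0.63 in young, and -0.05 in older rats. Over all 4669 probe sets the medians were 0.01, 0.04, and -0.03 in adult, older, and young rats. The adult and older values repeat the age difference that chose the probe sets and are given as a description. The young values are not independent of that choice either, because the young arrays entered the spread.

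**Figure D2:**
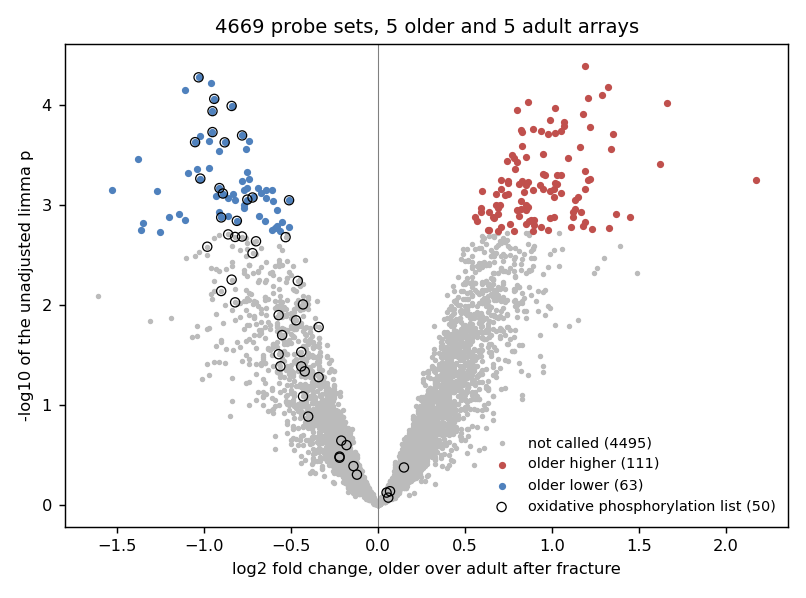
Each point is 1 of 4669 probe sets, with the log2 fold change of older over adult rats after fracture on the x axis and the -log10 of the unadjusted limma p on the y axis. Red points (111) were called higher and blue points (63) lower, and the open circles mark the 50 genes of oxidative phosphorylation, of which 46 lie left of 0.

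Genes of oxidative phosphorylation were the most numerous lower genes among 44 lists of genes with a shared role. Of 50 genes of the list, 16 were called lower in older than in adult rats and 0 higher. The median log2 fold change was -0.57, beside 1.35% lower and a median of 0.07 over all probe sets tested. In all, 46 of the 50 had a negative value. In the 1 pair of arrays without fracture the list had a median of -1.52. Genes were placed in complexes by their symbols, so the counts are by name and not strictly of subunits. The Ndu genes of complex I include Ndufa4 and Ndufa4l2, and the Atp5 genes of complex V include Atp5if1. Complex I, which takes electrons from NADH, had 10 of 25 lower with a median of -0.75. Complex III, which passes electrons to cytochrome c, had 2 of 4 lower and a median of -0.69. Complex IV, cytochrome c oxidase, had 2 of 10 lower and a median of -0.64. Complex V, the ATP synthase, had 2 of 10 lower and a median of -0.32. The 1 subunit of complex II tested, Sdha, had a value of -0.22 and was not called.

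Cyc1, cytochrome c1 of complex III, had signals of 2140, 1765, 2546, 1810, and 2357 in older rats and of 2285, 3487, 5877, 5587, and 6037 in adult rats from 3 days to 6 weeks. The ages were near each other at 3 days and did not overlap from 1 week on. Without fracture they were further apart, with 1525 in the older and 9008 in the adult array. After fracture Cyc1 was 2.08-fold lower in older rats (log2 fold change -1.05 ± 0.22, limma adjusted p = 0.0326), and the young mean was 3650.

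Atp5po, a stalk subunit of the ATP synthase, was lower in older rats at all 5 times. Its signals were 4763, 4722, 5404, 3559, and 3899 in older rats and 6079, 9585, 10958, 7857, and 11774 in adult rats, so that the highest older array lay below the lowest adult array. It was 2.04-fold lower (-1.03 ± 0.18, limma adjusted p = 0.0323). A second probe set of Atp5po gave -0.21 and was not called.

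Cox5b, a nuclear-coded subunit of complex IV, also had no overlap between the ages. Older rats had 2793, 2487, 3100, 2451, and 2262, and adult rats had 3417, 4284, 5895, 5479, and 6712. It was 1.93-fold lower (-0.95 ± 0.18, limma adjusted p = 0.0323). Cox6b1 of the same complex was 1.94-fold lower (-0.95 ± 0.19, adjusted p = 0.0323). Second probe sets of Cox5b and Cox6b1 had -0.54 and -0.47 and were not called. In complex I, Ndufv2 was 2.03-fold lower (-1.02 ± 0.23), Ndufc1 1.91-fold (-0.94 ± 0.17), Ndufa5 1.88-fold (-0.91 ± 0.21), and Ndufs7 1.86-fold (-0.89 ± 0.21), with adjusted p by limma from 0.0323 to 0.0382. Of 4 probe sets of Ndufb8, 1 was called at -1.02 ± 0.21 and the others ran from -0.82 to -0.51. Ndufab1, the mitochondrial acyl carrier protein that also sits in complex I, was 1.96-fold lower (-0.97 ± 0.21, limma adjusted p = 0.0382). Second probe sets of Ndufc1 and Ndufab1 had -0.84 and -0.67 and were not called.

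Promoters of 3 of these genes and of 1 muscle gene are shown as examples, chosen because they hold a match to 1 of 3 short motifs of factors known from mitochondrial and muscle genes. The promoters of Ndufv2, Ndufs7, Ndufc1, Ndufab1, and Cox6b1 held no match to any of the 3, and that of Ndufb8 held only an E-box. The sequences are from RefSeq on the GRCr8 build and run from 250 bases before to 50 bases after the start of the gene, on its own strand. Capitals mark the core site of nuclear respiratory factor NRF1, which is GCGCA, any base, and GCGC, CCGGAAGT, a site of ETS factors, and CAGCTG, an E-box of the kind that MyoD binds. Each was searched on both strands, and no 2 marked sites overlap. Atp5po lies at chr11:44657434-44657733 on the minus strand, Ndufa5 at chr4:53971186-53971485 on the minus strand, Cox5b at chr9:46417587-46417886 on the plus strand, and Scn4a at chr10:91796275-91796574 on the minus strand.
Atp5po: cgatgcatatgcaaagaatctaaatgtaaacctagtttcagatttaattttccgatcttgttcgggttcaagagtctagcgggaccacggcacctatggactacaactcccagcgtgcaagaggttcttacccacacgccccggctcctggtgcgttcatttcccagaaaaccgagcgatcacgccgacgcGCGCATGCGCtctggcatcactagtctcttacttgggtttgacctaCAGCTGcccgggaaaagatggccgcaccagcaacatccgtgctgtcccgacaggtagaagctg
Ndufa5: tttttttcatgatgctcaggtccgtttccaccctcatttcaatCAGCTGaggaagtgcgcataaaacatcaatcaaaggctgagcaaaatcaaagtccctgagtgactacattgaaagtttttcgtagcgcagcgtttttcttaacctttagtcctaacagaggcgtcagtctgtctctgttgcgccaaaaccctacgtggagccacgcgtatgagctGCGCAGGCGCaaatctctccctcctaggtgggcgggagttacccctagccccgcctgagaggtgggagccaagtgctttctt
Cox5b: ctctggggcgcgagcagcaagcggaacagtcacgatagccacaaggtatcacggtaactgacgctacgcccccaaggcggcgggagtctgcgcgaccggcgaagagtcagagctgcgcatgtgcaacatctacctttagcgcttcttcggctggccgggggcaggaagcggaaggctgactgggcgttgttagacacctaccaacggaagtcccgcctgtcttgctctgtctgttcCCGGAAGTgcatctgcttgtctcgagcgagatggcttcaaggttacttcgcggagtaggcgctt
Scn4a: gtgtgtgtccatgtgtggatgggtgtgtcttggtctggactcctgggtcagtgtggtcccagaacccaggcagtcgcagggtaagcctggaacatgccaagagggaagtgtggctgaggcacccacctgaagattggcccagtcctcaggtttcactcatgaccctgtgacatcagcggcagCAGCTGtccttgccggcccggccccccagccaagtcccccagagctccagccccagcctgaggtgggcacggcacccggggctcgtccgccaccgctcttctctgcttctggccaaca

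The NRF1 core was in 6 of 43 promoters of the oxidative phosphorylation list (14.0%), in 8.53% of the 2380 promoters of genes tested, and in 4.71% of all 27457 promoters of the same length. Among the genes of the list it was in 3 of 14 called lower and in 3 of 29 not called. In the same sets the ETS site was in 1 of 14 and 3 of 29, and the E-box in 5 of 14 and 4 of 29. The ETS site was in 4 of 43 (9.3%), beside 6.76% of genes tested and 4.01% of all. The E-box was in 13 of 24 promoters of the fast muscle list (54.2%) and in 9 of 43 of the oxidative phosphorylation list (20.9%), beside 17.6% of genes tested and 15.1% of all. A match is a string of letters in this window, and no binding was measured.

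Skeletal muscle genes lay lower in older rats from 1 week on, and this did not hold at 3 days. Of 29 genes of fast muscle fibers, 2 were called lower and 0 higher with all arrays, beside 1.35% lower over all probe sets tested. Their median log2 fold change was -0.75, and 28 had a negative value. The medians were 0.55 at 3 days and -0.85, -1.04, -1.18, and -1.10 from 1 week to 6 weeks. In the 1 pair of arrays without fracture the median was -1.82. Without both arrays of 3 days 23 of the 29 were lower (median -1.09), beside 6.49% lower and a median of 0.09 over all probe sets tested. The 11 genes of slow fibers had 0 calls and a median of -0.49, which was 0.39 at 3 days and between -1.16 and -0.49 later, with 4 lower without 3 days. The 14 genes of embryonic and regenerating muscle, among them the myogenic factor Myod1 (-0.44 ± 0.22, limma adjusted p = 0.227), had 0 calls, a median of -0.05, and 0 calls without 3 days.

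Scn4a, the sodium channel of the muscle membrane, had signals of 329, 367, 298, 156, and 249 in older rats and 219, 849, 845, 841, and 1164 in adult rats. The older array was the higher one at 3 days and the lower one at every later time. It was 2.56-fold lower over the 5 times (-1.36 ± 0.35, limma adjusted p = 0.0497). A second probe set of Scn4a gave 0.54 and was not called.

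Rpl3l, a ribosomal protein of muscle that is counted in both the muscle and the ribosomal list, had 334, 470, 611, 702, and 1018 in older rats and 320, 1414, 2352, 1943, and 2694 in adult rats. It was 2.41-fold lower (-1.27 ± 0.30, limma adjusted p = 0.0382). It was the only call among 39 cytosolic ribosomal protein genes by their brightest probe sets, whose median was -0.16. Over all probe sets tested 1.35% were called lower and 2.38% higher. A second probe set of Rpl3l had -0.79 and was not called.

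Ckm, muscle creatine kinase, is given as an abundant member that was not called with all arrays and was chosen after its values were seen. It had 14821, 14546, 22779, 17509, and 22138 in older rats and 10133, 32683, 41523, 39359, and 49236 in adult rats. The log2 fold change was -0.76 ± 0.21 with all arrays (limma adjusted p = 0.0595) and -1.09 ± 0.14 without 3 days (adjusted p = 0.00205).

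The summed signal of 5 muscle markers was also lower in older than in adult rats from 1 week on. From 1 week to 6 weeks it was 38453 to 58247 in older, 73977 to 111579 in adult, and 79475 to 104000 in young rats. At 3 days it was 38071 in the older and 27441 in the adult array. Older and adult rats did not overlap from 1 week on, and the order was turned at 3 days, where the oxidative phosphorylation list had a median of -0.12. The summed signal of 6 bone markers, given below, turned in the same way. It was higher in the older array at 3 days and lower in older than in adult rats from 1 week on. The part of muscle in the lower mitochondrial signals was not tested. In such tissue pieces, fewer cells of a type and less RNA per cell cannot be told apart.

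**Figure D3:**
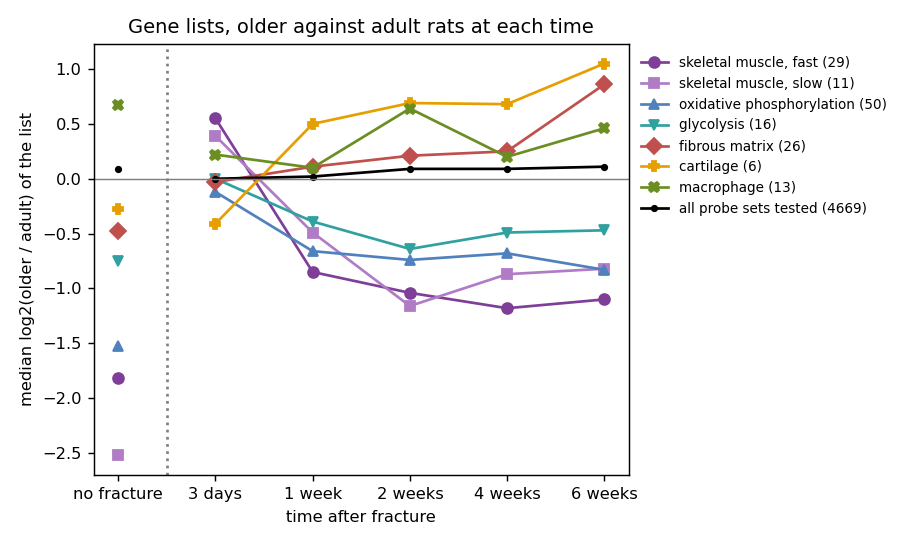
Lines give the median log2 difference of older over adult rats for 7 gene lists and for all probe sets tested (y axis) at each time after fracture (x axis), with the number of genes in parentheses and the pair without fracture left of the dotted line. The fast muscle list goes from 0.55 at 3 days to -0.85 at 1 week, oxidative phosphorylation stays between -0.83 and -0.66 from 1 week on, and cartilage reaches 1.05 at 6 weeks.

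Other genes of energy metabolism gave few calls. Of 16 glycolysis genes 2 were called lower and 0 higher (median -0.46), beside 1.35% lower over all probe sets tested. Pfkm, the muscle phosphofructokinase, was 2.29-fold lower (-1.20 ± 0.30, limma adjusted p = 0.0447), with signals of 1667 to 3157 in older and 1230 to 14239 in adult rats and overlap only through 3 days. Pkm was 1.52-fold lower (-0.60 ± 0.14, adjusted p = 0.0392). Without 3 days, 6 glycolysis genes were lower and 2 higher, beside 6.49% lower and 9.32% higher over all probe sets tested. Among these genes the muscle form Eno3 had -1.30 and Pgam2 had -1.09, while the platelet phosphofructokinase Pfkp had 0.58 and the glucose transporter Slc2a1 had 0.71. Among 28 mitochondrial enzymes of fatty acid oxidation and the citric acid cycle 2 were called lower and 0 higher (median -0.33). Pdk2, a kinase that turns off pyruvate dehydrogenase, was 1.96-fold lower (-0.97 ± 0.20, adjusted p = 0.0326), and Eci1, an enzyme of fatty acid oxidation, was 1.68-fold lower (-0.75 ± 0.17, adjusted p = 0.0382). Slc2a4, the insulin-regulated glucose transporter of muscle and fat, had -1.10 ± 0.31 and was not called (adjusted p = 0.0607). Further probe sets of these genes were not called. They had -0.36 for Pfkm, -0.48 for Pdk2, -0.32 for Slc2a4, and -0.52 and 0.21 for Eci1, whose probe sets thus differed in sign.

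Park7, an oxidative stress sensor, was 1.94-fold lower (-0.96 ± 0.17, limma adjusted p = 0.0323) with no overlap between the ages. Older rats had 1816, 1462, 1471, 1064, and 1292, and adult rats had 2294, 2949, 3165, 2392, and 2872. Without fracture the older array had 1002 and the adult array 4065. Psmb5, a catalytic subunit of the proteasome, was 1.67-fold lower (-0.74 ± 0.15, adjusted p = 0.0326) and was the 1 call among 21 proteasome genes, beside 1.35% lower over all probe sets tested. Both genes had a second probe set that was not called, at -0.27 and, for Psmb5, -0.29 and -0.12.

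The higher genes were spread over many lists, each with few calls. Of 26 genes of the fibrous matrix 3 were called higher and 0 lower (median 0.32), beside 2.38% higher over all probe sets tested. Col12a1, a collagen that lies along fibrils in dense connective tissue, had 3294, 4019, 3104, 2309, and 1980 in older rats and 3242, 1989, 1538, 1223, and 859 in adult rats. It was 1.78-fold higher (0.83 ± 0.17, limma adjusted p = 0.0323). The 2 arrays of 3 days were near each other, and the older array was the higher one at every later time. Plod2, which hydroxylates collagen lysines for cross-links, was 1.52-fold higher (0.60 ± 0.14, adjusted p = 0.0382).

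Spon1, the matrix protein spondin 1, peaked at 1 week in older rats. Its signals were 190, 869, 476, 503, and 424 in older rats and 177, 230, 221, 171, and 107 in adult rats. It was 2.52-fold higher (1.33 ± 0.34, limma adjusted p = 0.0485). It also belongs to a nerve list that the study chose, partly on these samples, for a greater rise in older rats, so that its direction here is not independent evidence. Of that list 9 genes were on the array and 6 were tested, and the other 5 tested were not called, and the list had a median of 0.33.

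Bone and cartilage genes showed few calls. The list of osteoblasts and bone matrix held 12 genes, with 1 higher, 0 lower, and a median of 0.00, beside 2.38% higher over all probe sets tested. The called gene was Gja1, the gap junction protein connexin 43, with 744, 552, 426, 633, and 561 in older rats and 543, 196, 165, 204, and 149 in adult rats, 2.59-fold higher (1.37 ± 0.34, limma adjusted p = 0.0447). The older arrays lay above the adult arrays at each time, and the groups overlapped only through the adult array of 3 days. The summed signal of 6 bone markers was 67451 to 88204 in older and 90441 to 115972 in adult rats from 1 week on, and 68189 against 64303 at 3 days. The 6 cartilage genes tested were not called (median 0.46), though all 6 had positive values. Comp had 0.96 ± 0.33 (adjusted p = 0.100), and the list's median went from -0.41 at 3 days to 1.05 at 6 weeks. In osteoclast genes the median was -0.07, and Ctsk, the collagen-cutting protease of osteoclasts, had -0.20 ± 0.30 (adjusted p = 0.711).

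Of 14 genes of smooth muscle and myofibroblasts 2 were called higher and 1 lower, with a median of 0.08. Over all probe sets tested 2.38% were called higher and 1.35% lower. Cald1, caldesmon, was 2.50-fold higher (1.32 ± 0.24, limma adjusted p = 0.0323) with 323 to 593 in older and 53.5 to 445 in adult rats, where the adult 6 weeks array was set to the floor of 100. Tpm4 was 1.66-fold higher (0.73 ± 0.17, adjusted p = 0.0387), while a second probe set had 0.36 and was not called. The probe sets of Tpm1, which has muscle and nonmuscle forms, went both ways: its brightest had -0.77 ± 0.19 (adjusted p = 0.0419), another had 1.03 (adjusted p = 0.0382), and the values of all 5 ran from -0.77 to 1.03. Twf1, twinfilin, which binds actin monomers, had 2169, 2031, 1436, 961, and 1108 in older rats and 2167, 546, 476, 423, and 261 in adult rats. It was 2.55-fold higher (1.35 ± 0.27, limma adjusted p = 0.0323), while a second probe set had 0.45 and was not called. Without fracture Twf1 had 867 in the older and 219 in the adult array.

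Lists of inflammation and macrophages gave 1 call each, beside 2.38% higher over all probe sets. Ccl2, the chemokine that draws monocytes, had 1757, 1610, 710, 798, and 908 in older rats and 1728, 471, 429, 305, and 244 in adult rats. The arrays of 3 days were near each other, and no later adult array reached the lowest older array. Ccl2 was 2.24-fold higher (1.16 ± 0.24, limma adjusted p = 0.0341) and was the only call among 27 genes of inflammation (median 0.09), while its second probe set had 0.60 and was not called. Of 13 macrophage genes 1 was called higher (median 0.41, 12 with a positive value). It was Lgals3, galectin 3, 1.87-fold higher (0.90 ± 0.23, limma adjusted p = 0.0457). The summed signal of 3 macrophage markers, which include Lgals3, was 3045 to 4721 in older and 1495 to 3267 in adult rats from 1 week on. These ranges overlapped across different times, while the older array was the higher one at each of these times. Ctsl, a lysosomal protease, was 1.49-fold higher (0.57 ± 0.15, adjusted p = 0.0459) and was the only call among 26 matrix proteases and inhibitors (median 0.36), of which 22 had a positive value. In a second probe set of Ctsl the value was -0.02. Ifitm3, an interferon-induced membrane protein, was 1.51-fold higher (0.59 ± 0.14, adjusted p = 0.0431), the 1 call among 11 interferon genes (median 0.17). Cd48, a leukocyte surface protein, was 1.48-fold higher (0.56 ± 0.14, adjusted p = 0.0447), the 1 call among 7 genes of T and NK cells (median 0.28).

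Among receptors and growth factors 2 of 37 were called higher and 1 lower (median 0.09), beside 2.38% higher and 1.35% lower over all probe sets tested. Fgfr2, an FGF receptor of skeletal precursor cells, had 265, 291, 462, 594, and 463 in older rats and 262, 244, 65.4, 68.7, and 60.5 in adult rats. The 3 last adult values lay below the floor of 100. Measured against that floor it was 2.74-fold higher (1.45 ± 0.36, limma adjusted p = 0.0447), and a second probe set had -0.03. Acvr1, a receptor for bone morphogenetic proteins, was 1.93-fold higher (0.95 ± 0.21, adjusted p = 0.0382), with 1 adult array below the floor. Bdnf, brain-derived neurotrophic factor, was 2.16-fold lower (-1.11 ± 0.20, adjusted p = 0.0323), with 236, 57.5, 119, 96.0, and 76.0 in older and 300, 313, 259, 273, and 198 in adult rats. These are low signals, 3 of the older ones lie below the floor, and a second probe set had 0.31.

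Vessel and nerve-related genes gave single calls. In 10 endothelial genes 2 were called higher (median 0.20), beside 2.38% higher over all probe sets tested. Calcrl, a receptor for adrenomedullin and calcitonin gene-related peptide, was 1.80-fold higher (0.85 ± 0.18, limma adjusted p = 0.0362), and Cav1, a protein of caveolae, was 1.75-fold higher (0.81 ± 0.20, adjusted p = 0.0447). The 3 endothelial markers summed to 714 to 785 in older and 604 to 811 in adult rats from 1 week on, with Vwf below 100 on every adult array. F2r, the thrombin receptor, was 1.77-fold higher (0.82 ± 0.20, adjusted p = 0.0431), the 1 call among 12 genes of complement and coagulation (median 0.33). Ncam1, the neural cell adhesion molecule that nerve and regenerating muscle carry, had 530, 597, 422, 516, and 574 in older rats and 359, 380, 99.2, 106, and 78.7 in adult rats. No adult array reached the lowest older array, and against the floor it was 3.07-fold higher (1.62 ± 0.35, adjusted p = 0.0378). A second probe set had 0.32 and was not called. Cd9, a membrane protein of Schwann cells and many others, was 1.93-fold higher (0.95 ± 0.22, adjusted p = 0.0382), the 1 call among 8 genes of Schwann cells and myelin (median 0.37), and had that direction at 4 of 5 times. A second probe set of Cd9 had 0.56 and was not called.

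The nerve lists of the study held 2 called genes in all, Spon1 and Sec11a, both higher. Over all probe sets tested 2.38% were called higher and 1.35% lower. For example genes of the lists that differ with age, the study tested older against young rats or a trend over all ages. Here older rats were compared with adult rats, so the counts below do not repeat those tests. In the list up-regulated at all ages 1 of 22 was called higher (median 0.21). It was Sec11a, a subunit of the signal peptidase, 1.98-fold higher (0.99 ± 0.19, limma adjusted p = 0.0323), which is also the 1 call among 29 genes of the endoplasmic reticulum and secretory pathway (median 0.23, 25 with a positive value). A second probe set of Sec11a had 0.54 and was not called. In the list of a prolonged fall in older rats 0 of 6 were called (median 0.00, Npy 0.42 ± 0.25). In that of a greater rise in younger rats 0 of 3 were called (median 0.52, Ptprz1 0.70 ± 0.26). In that of genes down at all ages 0 of 13 were called (median 0.06, Clcn3 -0.55 ± 0.18), and in 16 neuron and axon genes 0 were called (median 0.04, Th -0.52 ± 0.23). Adjusted p by limma of these named members ran upward from 0.0895.

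**Figure D4:**
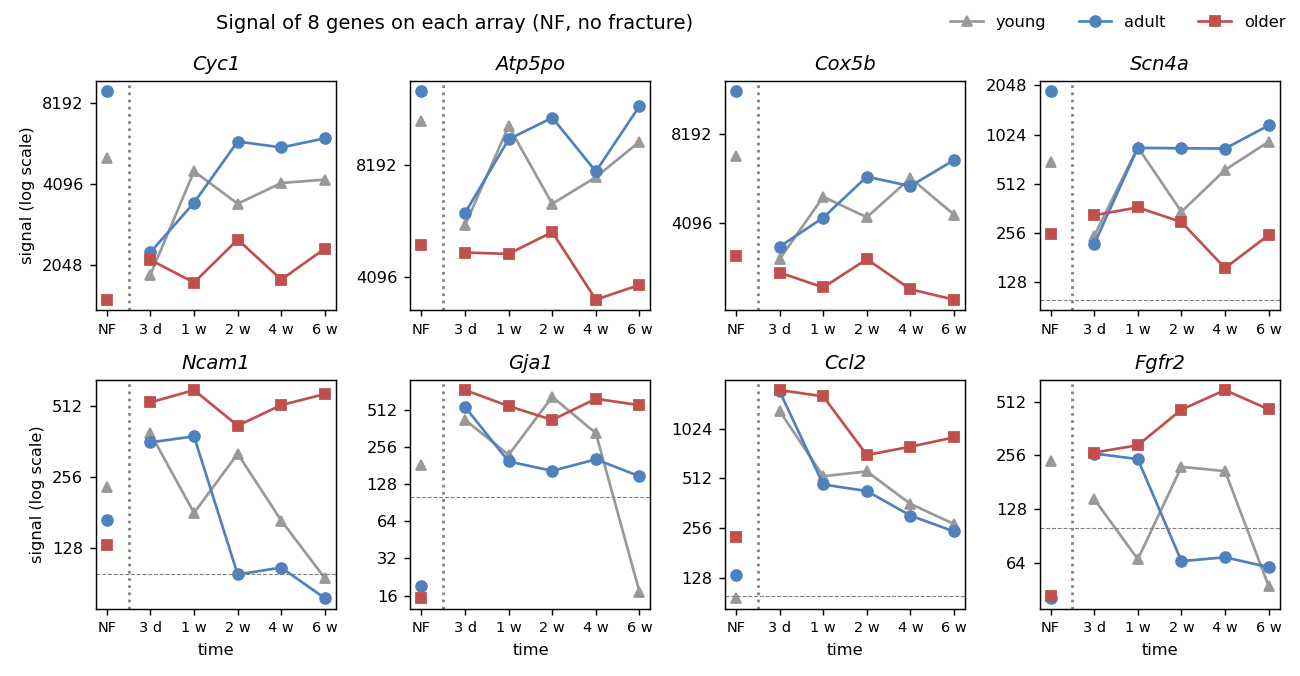
Signals of 8 genes on each array (y axis, log scale, arbitrary units) for young (grey), adult (blue), and older rats (red) at 3 days to 6 weeks after fracture and, left of the dotted line, without fracture (NF), with the floor of 100 as a dashed line where it is in range. Older and adult rats lie close together at 3 days in Cyc1 (2140 and 2285) and Ccl2 (1757 and 1728) and are apart from 1 week on. Without fracture Cyc1 is also apart (1525 and 9008).

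The remaining genes with the largest changes have various roles. Higher in older rats were the splicing factors Tra2b (2.07-fold, 1.05 ± 0.21, called by all of its 3 probe sets) and Srsf11 (2.13-fold, 1.09 ± 0.23), Rcn2, a calcium-binding protein of the endoplasmic reticulum (2.10-fold, 1.07 ± 0.21), Emp1, an epithelial membrane protein (2.01-fold, 1.01 ± 0.24), Ivns1abp, a kelch protein that binds actin (2.03-fold, 1.02 ± 0.20), and Zfp386, a zinc finger protein (2.22-fold, 1.15 ± 0.27), with adjusted p by limma from 0.0323 to 0.0387. Of these, only Ivns1abp had no overlap between the ages over all 5 times. Without fracture, in 1 pair, the log2 difference was already 2.16 for Rcn2, 2.09 for Ivns1abp, 1.72 for Tra2b, and 1.41 for Srsf11. It was 0.19 for Emp1 and -0.16 for Zfp386. Rps15 was named through 1 of 3 probe sets at 1.34 ± 0.28 (adjusted p = 0.0341), and the others had 0.49 and -0.10. Among 37 genes of oxidative stress and detoxification 1 was called higher, beside 2.38% over all probe sets tested. It was Selenop, a plasma carrier of selenium (1.58-fold, 0.66 ± 0.17, limma adjusted p = 0.0447).

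In 22 of the 44 lists 0 genes were called. Besides those given above, these were erythroid (13 genes, median -0.13), neutrophil (8, 0.20), mast cell (7, 0.22), B cell (4, -0.03), MHC class I (16, 0.08) and class II (8, 0.27), adipocyte (18, 0.06), proliferation (28, 0.14), basement membrane (5, 0.35), heat shock and chaperones (15, -0.22), immediate early genes (24, 0.19), cell cycle inhibitors (5, -0.01), and cholesterol (12, 0.22) and fatty acid synthesis (8, 0.15). The lowest adjusted p by limma among them was 0.0501, for the cell cycle inhibitor Cdkn1a (1.04 ± 0.27) and the sterol enzyme Ebp (0.69 ± 0.18). The other members of lowest p were Cryab (-0.94 ± 0.25), Sgk1 (0.61 ± 0.17), RT1-M3-1 (0.62 ± 0.19), Lamc1 (0.56 ± 0.17), RT1-Bb (0.68 ± 0.22), Tfrc (0.85 ± 0.30), Scd2 (0.45 ± 0.17), Tmpo (0.34 ± 0.17), Fcer1a (0.42 ± 0.24), Cxcr1 (0.39 ± 0.32), and Cd37 (0.21 ± 0.21). The signal sum of 3 neutrophil markers was 533 to 10761 in older and 523 to 27707 in adult rats from 1 week on, and that of 4 erythroid markers was 3830 to 42691 and 7876 to 52742, over arrays of different times.

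A further comparison asked whether the age difference at 4 and 6 weeks departed from that at 3 days, 1 week, and 2 weeks. By limma 0 probe sets were called, with 156 at an unadjusted p below 0.05 and a lowest adjusted p of 0.645. The largest values are therefore given without a call. Mmp3, stromelysin 1, had 265, 146, 283, 564, and 817 in older and 269, 153, 148, 203, and 133 in adult rats, a departure of 1.77 ± 0.44. Prrc2c had a departure of 1.30 ± 0.33, Inha of 1.44 ± 0.39, Endod1 of 0.99 ± 0.28, and Cdc42bpa of 1.39 ± 0.40. In the other direction were Snrnp70 (-1.20 ± 0.31), Orai1 (-1.53 ± 0.44), Ccn1 (-1.90 ± 0.59), Ptprs (-1.18 ± 0.41), and Ptpn23 (-1.49 ± 0.52), all of these 10 with an adjusted p of 0.993. Orai1, a calcium channel subunit, went from 558 at 3 days to 58.8 at 6 weeks in older rats and from 476 to 534 in adult rats.

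The last comparison asked whether the age difference after fracture departed from that without fracture, where each age had 1 array. Of 4669 probe sets 100 were called, 2.14%, with 26 higher and 74 lower after fracture relative to no fracture. These calls rest on a single pair of arrays without fracture, which differed widely: 859 probe sets were 2-fold or more higher and 595 lower in the older one, 31.1% of those tested. In this pair the medians were -1.82 for fast muscle, -2.52 for slow muscle, and -1.52 for oxidative phosphorylation, and 1.35 for erythroid, 1.30 for neutrophil, and 1.36 for proliferation genes. The muscle markers summed to 55550 in the older and 118430 in the adult array, and the neutrophil markers to 67994 and 39266. The part of tissue content in these calls was not tested.

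**Figure D5:**
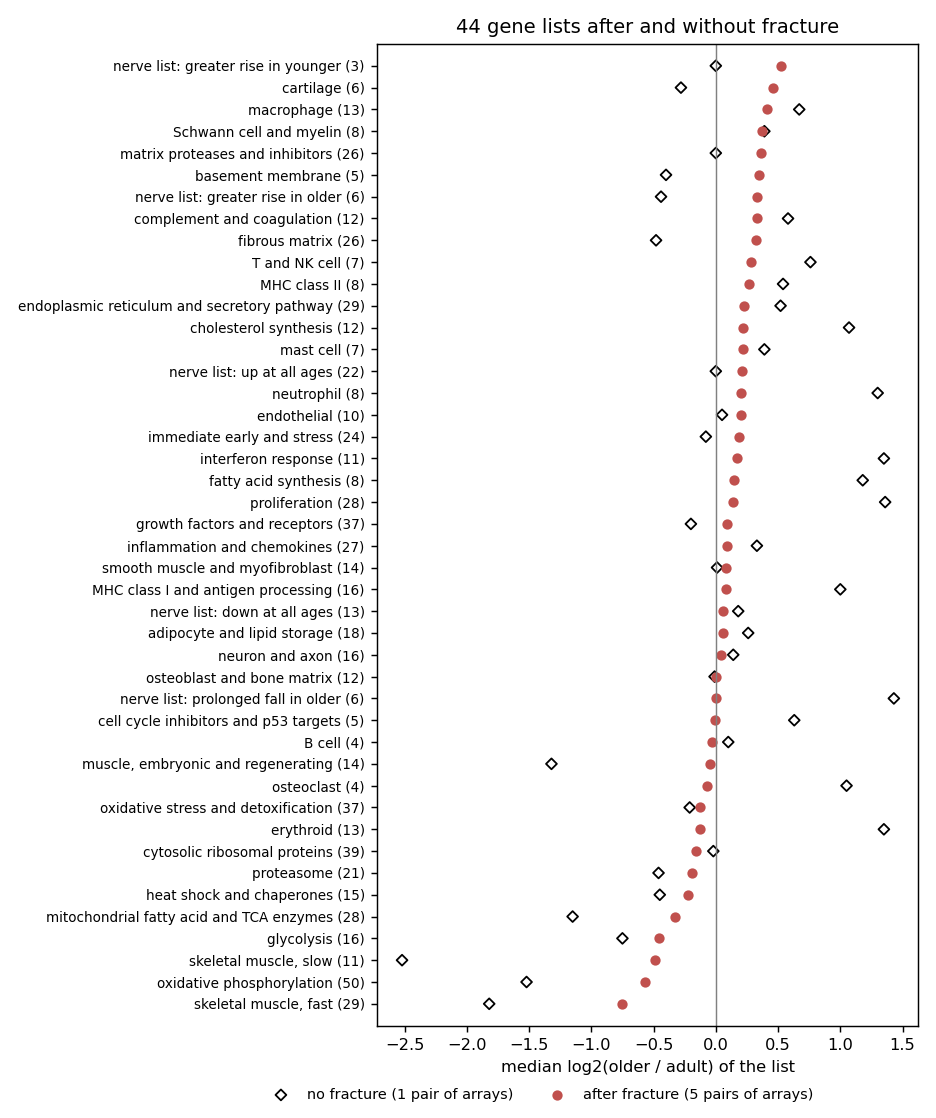
Points give the median log2 difference of older over adult rats (x axis) for 44 gene lists (y axis, number of genes in parentheses), after fracture over 5 pairs of arrays (filled red) and without fracture in 1 pair (open diamonds). The open diamonds spread from -2.52 to 1.43, the filled points from -0.75 to 0.52.

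The 5 genes with the largest positive departures are given first. Among the lists, 0 of 29 fast muscle genes, 1 of 11 slow muscle genes, and 1 of 8 neutrophil genes were called, beside 2.14% over all probe sets tested. Dbp, a clock-controlled transcription factor, had 99.0 in the older and 603 in the adult array without fracture, and after fracture 209, 452, 521, 164, and 702 in older against 186, 142, 88.5, 184, and 197 in adult rats. The departure was 3.77 ± 0.74 (limma adjusted p = 0.0317). Csrp3, a muscle LIM protein, departed by 2.61 ± 0.59, Hspb1 by 2.39 ± 0.52, Ndufa4l2 by 2.38 ± 0.43, and Flnc, muscle filamin, by 2.15 ± 0.51, with adjusted p from 0.0291 to 0.0476. In each of these the older array without fracture was far below the adult one, as in Hspb1 with 1457 against 11244. After fracture the age difference differed in sign among the 4 probe sets of Hspb1, from -0.56 to 0.31.

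The 5 largest negative departures had higher signals in the older array without fracture. Lcn2, a granule protein of neutrophils, had 6531 in the older and 799 in the adult array without fracture and 220 to 597 and 206 to 1094 after fracture, a departure of -2.95 ± 0.70 (limma adjusted p = 0.0458). Mmp8, neutrophil collagenase, departed by -2.83 ± 0.52, the leukocyte protein Cd53 by -2.77 ± 0.52, complement C3 by -3.28 ± 0.65, and the ATP-gated channel P2rx1 by -2.75 ± 0.46, with adjusted p from 0.0291 to 0.0317. C3 lay below 100 on 9 of the 10 arrays after fracture, Mmp8 on 8, and P2rx1 on 7, and such values were set to 100. Leaving out the older 2 weeks, the adult 1 week, or the adult 6 weeks array left 0 calls. Leaving out the older 6 weeks or the adult 3 days array gave 36, and leaving out the adult 4 weeks array gave 24.

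The arrays of the 2 ages differed in measures other than gene groups. The median signal was 143.7 to 182.6 on older and 140.5 to 157.1 on adult arrays, and 37.2% to 43.0% and 40.4% to 43.2% of signals lay below 100. Gapdh probes at the 5′ end of the transcript, set against those at the 3′ end to gauge RNA quality, gave ratios of 0.830, 0.873, 0.850, 0.865, and 0.814 on older and 0.857, 0.650, 0.797, 0.850, and 0.717 on adult arrays from 3 days to 6 weeks. For actin the ratios were 0.519, 0.649, 0.551, 0.842, and 0.720 on older and 0.542, 0.372, 0.496, 0.661, and 0.544 on adult arrays. Both ratios were thus slightly lower in the older array at 3 days and higher in it at every later time, where 2-fold differences were also more numerous. Without fracture, where 2-fold differences were most numerous (31.1%), both ratios were lower in the older array. The older and adult arrays had 0.757 and 0.828 for Gapdh, and 0.447 and 0.572 for actin. The part of these ratios in the results was not tested. Scaling to equal array medians gave 54 higher and 83 lower calls, or 39.4% higher, and quantile normalization gave 62 and 61, or 50.4% higher, beside 63.8% with the deposited scaling, while requiring 500 in the filter left 55.0%. The balance of higher and lower calls thus varied with the scaling and the filter. The oxidative phosphorylation list had 21 lower genes with equal medians and 15 with quantile normalization, beside 16 with the deposited scaling, and 0 higher in each.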

How the data were processed

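Total RNA was read on Affymetrix rat genome arrays, and the intensity values used are those the authors deposited: Microarray Suite 5.0 signals scaled array by array to an average signal of 500, without log. The 2% trimmed mean was 500.6 to 500.9 on each array. Of 8799 probe sets, 59 were controls, 7006 had 1 gene symbol, 308 several, and 1426 none, and symbols were updated through current gene tables for 6994. Signals below 100 were set to 100, log2 was taken, and probe sets with 200 or more on at least 3 of 18 arrays were tested. Age and time were fitted with limma 3.58.1 in R 4.3.3 (lmFit, eBayes with a mean trend, Benjamini-Hochberg adjustment) on the 15 arrays after fracture, and on all 18 for the departure from no fracture. The time term pairs the ages, as the labels give 1 array per age and time. The scripts were tested on simulated data. The methods' ordinary two-sample comparison was an alternative.

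Gene lists counted 1 probe set per gene, that of highest mean signal. Named were the 12 largest called changes each way with 1 symbol, a mean of 500 or more, and 1 direction at all 5 times, the 5 largest departures each way, up to 3 called members of each list, and otherwise the member of lowest p. The comparison, lists, and rules were chosen with earlier results of these data known. Python 3.11.15, pandas 2.3.3, and matplotlib 3.10.9 were used for tables and figures.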

Additional observations from a re-analysis of the deposited data

Results flagged for a closer look

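In 9 of 96 groups of 5 arrays of the named called genes, 9.38%, 1 array stood apart from the other 4, where chance alone flags about 5%. The adult 3 days array was the highest for Gja1 (543.4), Tra2b (1109.3), Sec11a (1778.3), and Cd9 (3850.8) and the lowest for Scn4a (218.9) and Tpm1 (6264.3). The older 3 days array was the highest for Bdnf (236.2). The older 4 weeks array was the lowest for Rps15 (672.1), and the adult 6 weeks array was the lowest for Cav1 (228.8).

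The age difference after fracture departed from that without fracture, by limma on the log2 scale, for Dbp (3.77), Csrp3 (2.61), Hspb1 (2.39), Ndufa4l2 (2.38), Flnc (2.15), C3 (-3.28), Lcn2 (-2.95), Mmp8 (-2.83), Cd53 (-2.77), and P2rx1 (-2.75). Each value rests on 1 older and 1 adult array without fracture.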

How the results depend on the processing

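For older against adult rats after fracture, 174 calls became 103 with a floor of 200, 0 without the filter (1350 at an unadjusted p below 0.05), 84 without the mean trend (73.8% higher), 643 with all 18 arrays, 738 without both arrays of 3 days, 3 by the ordinary two-sample test after adjustment (683 before; Galnt5, the probe set rc_AA859957_at, and Tpm4, chosen after their values were seen), and 0 without the replicate block, that is without pairing by time (715 at an unadjusted p below 0.05). The Tpm4 probe set called by the ordinary test had 0.36 and was not called by limma (adjusted p = 0.178). It is not the Tpm4 probe set that limma called at 0.73. Leaving out 1 array gave 0 to 640 calls. Of 48 named called genes, 35 kept their call with a floor of 200 and 36 with quantile normalization, and 0 reversed. For 4 and 6 weeks against earlier times, 0 calls became 7 without the filter, and 1, Nos2 (-3.32), with only the older and adult arrays or without the young 6 weeks array. Leaving out 1 array gave 0 to 0. For the departure from no fracture, 100 calls became 271 with a floor of 200, 337 without the filter, 66 with equal medians, 257 with only older and adult arrays, and 168 without the young 6 weeks array, and leaving out 1 array gave 0 to 82. Leaving out either array without fracture left no contrast to fit. Ctsk, not called, went from -0.20 to 0.10 with quantile normalization, and leaving out 1 array gave -0.38 to 0.03, the latter without the older 3 days array. The cause of these changes was not tested.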
